A study of Homo sapiens with 6 samples.

Results

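The effectors of the ATF4 arm of the integrated stress response were followed in NGP cells, a human neuroblastoma line, with and without knockdown of CAMKV. The set held 10 genes picked by symbol: the transcription factors ATF4, ATF3, ATF5, DDIT3, CEBPB and CEBPG, the feedback regulators PPP1R15A and TRIB3, and the enzymes CHAC1 and ASNS. All 10 were found among the 19868 entries of the gene count table, and all 10 were among the 13366 entries that passed the filter on low counts. In all, 2 groups of RNA-seq libraries were compared: CAMKV-KD (n = 3), in which short hairpin RNA against CAMKV had been used, and Control (n = 3), with a control hairpin. Both groups were NGP cells grown in RPMI-1640 with serum, with no other agent named. The labels state neither how many hairpins against CAMKV were used nor whether the libraries of a group were separate cultures, so the p-values rest on library-to-library spread that could be purely technical. CAMKV, a pseudokinase related to the calmodulin-dependent kinases, was at 25.4, 23.2 and 25.4 CPM (counts scaled to the TMM-adjusted library size) in CAMKV-KD and at 83.9, 77.3 and 84.6 CPM in Control, which leaves 30.1% of the Control level.

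In the integrated stress response, kinases that sense different stresses phosphorylate the translation initiation factor eIF2. General translation then slows, while some mRNAs with upstream open reading frames, ATF4 among them, are translated more. ATF4 protein forms dimers with other bZIP factors and switches on genes for amino acid supply, redox balance, feedback on eIF2 and, through DDIT3 (CHOP), cell death. The counts here measure mRNA and not the protein or the phosphorylation of eIF2.

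As a set, the effectors were higher in CAMKV-KD. Of the 10 genes, 8 rose, 1 fell and 1 was not called in edgeR's quasi-likelihood test (adjusted p below 0.05 over all tested genes). Across all tested genes, 17.3% were called higher and 19.0% lower. The 10 genes, and the lists of genes used below, were chosen with earlier results of these data known. Their shares set beside those of all tested genes are therefore a description and not a test. The median log2 fold change, CAMKV-KD over Control, was 0.52 for the 10 genes and 0.004 for all tested genes. In 8 of the 10 genes every CAMKV-KD library lay above every Control library, a pattern that 26.2% of all tested genes showed, and in 1 every CAMKV-KD library lay below, as in 26.5% of all tested genes. These 10 genes together took 0.116, 0.120 and 0.118% of all counts in the CAMKV-KD libraries, against 0.0906, 0.0876 and 0.0887% in the Control libraries. In bulk libraries, more RNA per cell and a larger share of cells with that RNA cannot be told apart.

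**Figure D1:**
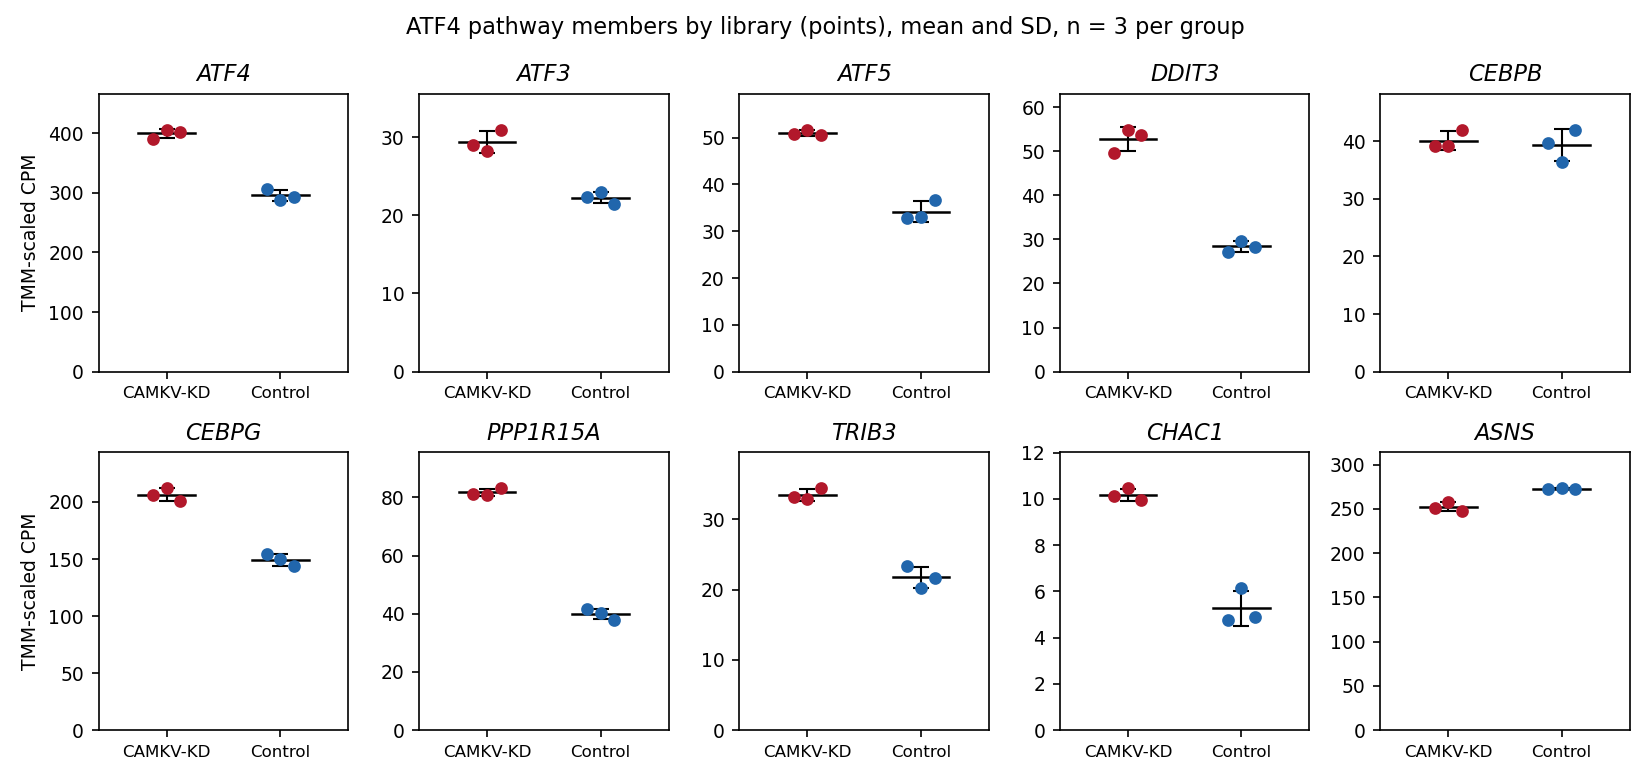
Level of each of the 10 genes in TMM-scaled CPM (vertical axes, each starting at 0) in the 3 CAMKV-KD libraries (left, red) and the 3 Control libraries (right, blue), with the group mean and SD. The groups are separate in all panels except that of CEBPB, and ASNS alone has its CAMKV-KD points below the Control points.

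ATF4 (chromosome 22, 39519695 to 39522685, plus strand, GRCh38), the central factor of the pathway, was at 389.9, 405 and 402 CPM in the CAMKV-KD libraries and at 306, 287 and 292.5 CPM in the Control libraries. The lowest CAMKV-KD library exceeded the highest Control library. The mean was 399 ± 8.20 CPM in CAMKV-KD and 295 ± 9.78 CPM in Control (SD, n = 3 each), a log2 fold change of 0.43 ± 0.035 (SE; adjusted p = 0.000726, edgeR). CEBPG (chromosome 19, 33373330 to 33382686, plus strand), a C/EBP protein that dimerizes with ATF4, had a change of similar size. CEBPG stood at 206, 212 and 201 CPM in CAMKV-KD and at 154.5, 149.8 and 143.9 CPM in Control. These groups were also separate, and its log2 fold change was 0.47 ± 0.041 (SE; adjusted p = 0.000914, edgeR). Processed pseudogenes of ATF4 are annotated, and how reads shared with them were counted is not given in the sources used here.

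DDIT3 (chromosome 12, 57516588 to 57521737, minus strand), which encodes CHOP, the pro-apoptotic factor downstream of ATF4, showed the largest rise of the 6 transcription factors. Its level was 49.6, 54.9 and 53.8 CPM in CAMKV-KD and 27.2, 29.7 and 28.3 CPM in Control. The means of 52.8 ± 2.77 CPM in CAMKV-KD and 28.4 ± 1.24 CPM in Control (SD, n = 3 each) correspond to a log2 fold change of 0.89 ± 0.066 (SE; adjusted p = 0.000579, edgeR), or 1.86-fold. ATF5 (chromosome 19, 49928702 to 49933935, plus strand), a relative of ATF4 whose translation is also controlled by upstream reading frames and which acts in the mitochondrial stress response, was at 50.7, 51.7 and 50.6 CPM in CAMKV-KD and at 32.9, 33.0 and 36.7 CPM in Control. Its log2 fold change was 0.58 ± 0.062 (SE; adjusted p = 0.00176, edgeR). ATF3 (chromosome 1, 212565334 to 212620777, plus strand), a bZIP factor induced by many stresses, was at 28.97, 28.2 and 30.9 CPM in CAMKV-KD and at 22.4, 22.9 and 21.5 CPM in Control. Its log2 fold change of 0.40 ± 0.066 (SE; adjusted p = 0.00725, edgeR) was the smallest among the genes that rose. For DDIT3, ATF5 and ATF3 alike, every CAMKV-KD library was above every Control library.

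CEBPB (chromosome 20, 50190734 to 50192689, plus strand), another C/EBP partner of ATF4, had overlapping groups. It was at 39.2, 39.2 and 41.99 CPM in CAMKV-KD and at 39.6, 36.3 and 41.9 CPM in Control. The log2 fold change was 0.030 with a 95% interval from -0.15 to 0.21 (adjusted p = 0.79, edgeR). That interval lies below the interval of ATF3, 0.23 to 0.57, the next gene in the order of change. The sign turned negative without CAMKV-KD 3 or Control 2, down to -0.023.

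Reads on both strands of some of these loci may have been counted together, since the strand setting is not given in the sources used here. In GENCODE 29, DDIT3 exons share 355 bases with exons of MARS, the methionyl-tRNA synthetase gene, and 58 bases with MBD6, both on the opposite strand. ATF5 exons share 626 bases with NUP62, a nuclear pore gene, also on the opposite strand. All of these neighbours were higher too: MARS by 0.37, MBD6 by 0.47 and NUP62 by 0.35 on the log2 scale, each less than its partner. The part of shared reads in the values of DDIT3 and ATF5 was not tested. DDIT3 exons also share 105 bases with AC022506.1, annotated as protein-coding on the same strand. CEBPB exons share 231 bases with an antisense gene, CEBPB-AS1, and ASNS exons share 1985 bases with AC079781.5 on the same strand. AC022506.1, CEBPB-AS1 and AC079781.5 were not analysed here.

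Both feedback regulators rose. PPP1R15A (chromosome 19, 48872392 to 48876057, plus strand) encodes GADD34, the stress-induced subunit that directs protein phosphatase 1 to eIF2 and so ends the response. It was at 81.3, 80.9 and 83.1 CPM in the CAMKV-KD libraries and at 41.5, 40.3 and 38.0 CPM in the Control libraries. The groups were far apart, with a mean of 81.7 ± 1.19 CPM in CAMKV-KD and 39.9 ± 1.78 CPM in Control (SD, n = 3 each), a log2 fold change of 1.03 ± 0.049 (SE; adjusted p = 0.000186, edgeR), or 2.05-fold. This was the largest change of the 10 genes and the 158th smallest p of all tested genes. TRIB3 (chromosome 20, 362835 to 397559, plus strand), a pseudokinase that binds ATF4 and restrains it, was at 33.2, 32.8 and 34.4 CPM in CAMKV-KD and at 23.3, 20.2 and 21.6 CPM in Control. Its groups did not overlap either, and its log2 fold change was 0.62 ± 0.074 (SE; adjusted p = 0.00237, edgeR).

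The 2 enzymes moved in opposite directions. CHAC1 (chromosome 15, 40952962 to 40956519, plus strand), which degrades glutathione and is a target of ATF4, was at 10.1, 10.5 and 9.94 CPM in CAMKV-KD and at 4.75, 6.15 and 4.89 CPM in Control. All CAMKV-KD libraries were higher, and the log2 fold change was 0.95 ± 0.13 (SE; adjusted p = 0.00414, edgeR). It had the lowest counts of the set, 216 to 251 per library in CAMKV-KD and 109 to 134 in Control, and the widest interval, 0.62 to 1.29. ASNS (chromosome 7, 97852118 to 97872542, minus strand), asparagine synthetase, a classical target of ATF4, was at 251.6, 258 and 248 CPM in CAMKV-KD and at 272, 273 and 273 CPM in Control. All 3 CAMKV-KD libraries lay below the Control libraries, which were nearly equal. ASNS fell by 0.11 ± 0.027 on the log2 scale (SE; adjusted p = 0.0261, edgeR), to 92.5% of the Control level. The fall was within a narrow margin: scaling by library totals gave -0.053 (adjusted p = 0.186, edgeR). Leaving out any library but CAMKV-KD 2 also ended the call, with values of -0.11 without CAMKV-KD 1, -0.10 without CAMKV-KD 3, -0.11 without Control 1, -0.11 without Control 2 and -0.11 without Control 3 (adjusted p up to 0.0735, edgeR). The 95% interval with all 6 libraries and TMM scaling, -0.18 to -0.044, lay below the interval of each of the 8 genes that rose.

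**Figure D2:**
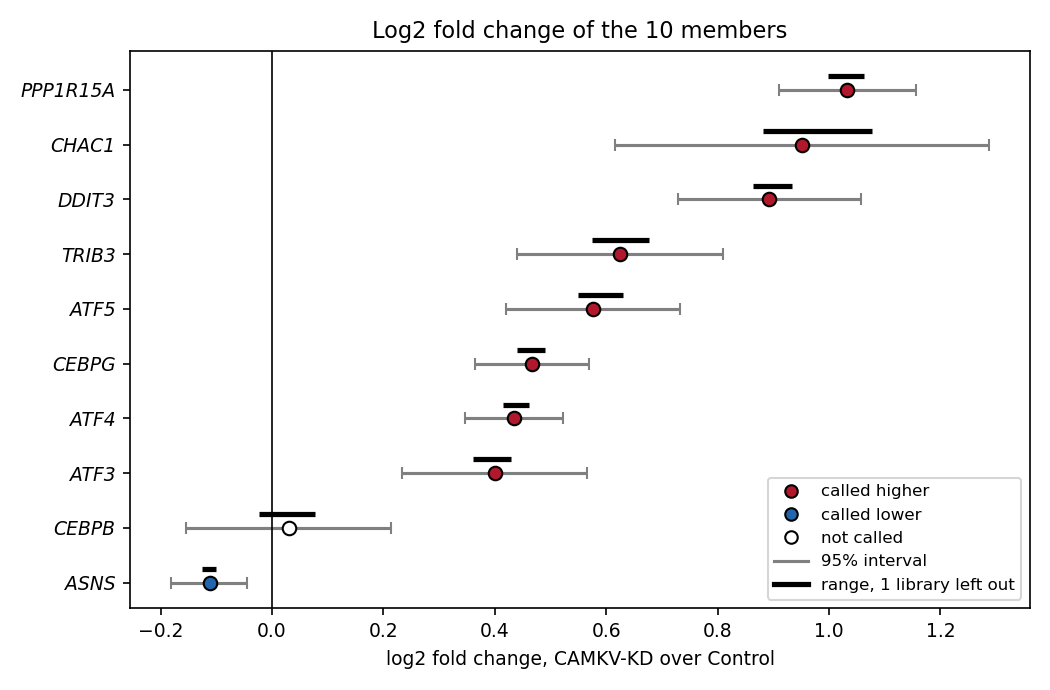
Log2 fold change of each of the 10 genes, CAMKV-KD over Control (horizontal axis), with its 95% interval in grey and, as a black bar above it, the range of estimates when 1 library was left out. PPP1R15A, CHAC1 and DDIT3 lie between 0.89 and 1.03, a second run of genes lies between 0.40 and 0.62, and CEBPB and ASNS lie near 0.

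Ordered by size of change, PPP1R15A, CHAC1 and DDIT3 were followed by TRIB3, ATF5, CEBPG, ATF4, ATF3, CEBPB and ASNS. Neighbours in this order had overlapping 95% intervals, except for ATF3 and CEBPB. The interval of PPP1R15A, 0.91 to 1.16, lay above those of TRIB3 (0.44 to 0.81), ATF4 (0.35 to 0.52) and every gene between them. Differences between the changes of 2 genes were not tested. Among all tested genes, 95.01% had a lower log2 fold change than PPP1R15A and 80.2% a lower one than ATF4. Of the 2319 genes called higher, 17.25% rose by more than PPP1R15A did. ATF4 itself was exceeded by 61.2% of the genes called higher.

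**Figure D3:**
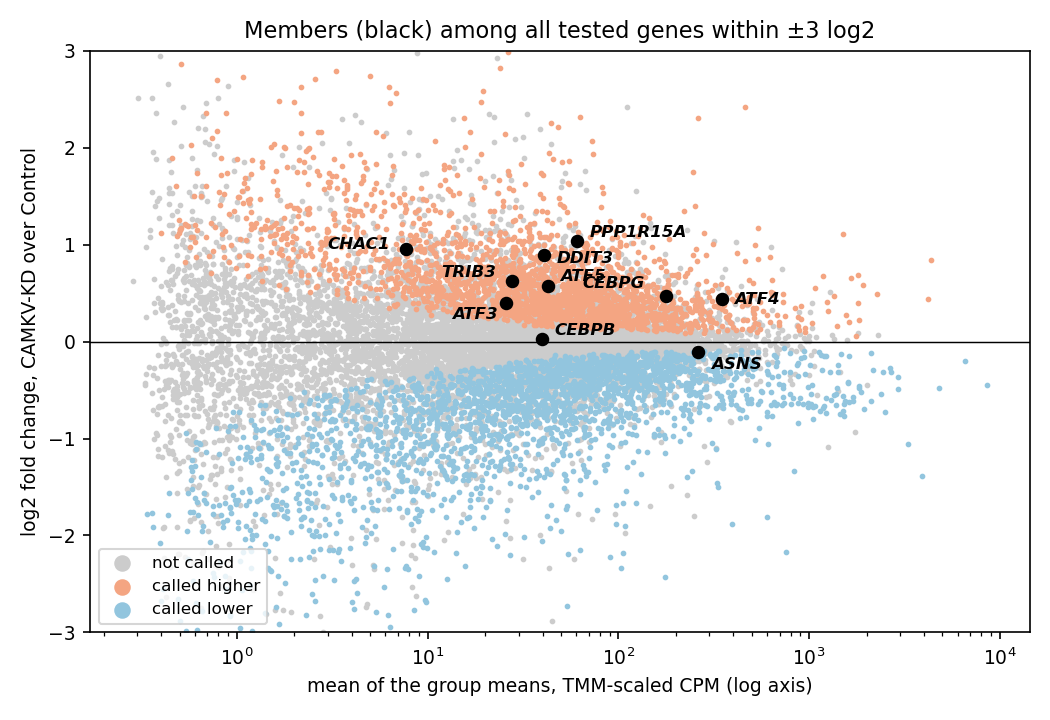
Log2 fold change, CAMKV-KD over Control, of all tested genes within 3 log2 units of 0 (vertical axis) against the mean of the group means in TMM-scaled CPM (horizontal log axis), coloured by call, with the 10 genes in black. The 8 genes that rose lie between 0.40 and 1.03, within the cloud of other genes called higher.

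Levels of different genes were compared per kilobase of annotated exon. On that scale of CPM per kilobase, ATF4 was the most abundant of the set, at 158.8 in CAMKV-KD and 117.5 in Control, and CHAC1 the least, at 4.95 in CAMKV-KD and 2.56 in Control. ASNS was second, at 56.6 in CAMKV-KD and 61.2 in Control, followed by CEBPG at 46.8 in CAMKV-KD and 33.9 in Control and DDIT3 at 40.4 in CAMKV-KD and 21.7 in Control. PPP1R15A stood above CEBPB in CAMKV-KD, at 26.4 against 20.5, and below it in Control, at 12.9 against 20.1. The order of the other genes was the same in both groups.

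Promoter sequence was read because ATF4 is known to act on several of these genes through short elements that ATF4 dimers bind. RefSeq windows (GRCh38.p14) from 250 bases before to 50 bases after each annotated start were searched on both strands. The letters sought were TGATGNAA, the core of the C/EBP-ATF composite element bound by ATF4 with a C/EBP partner, and TGACGTCA, the cAMP response element (CRE) bound by CREB and ATF dimers; no window of the 10 genes held both. The composite element was found in 4 of the 10 genes, and in 4.46% of all 27305 genes with a window. By window, it was in 4 of the 20 windows of the set and in 3.62% of all 35116. The CRE was found in 1 of the 10 genes and in 2.25% of all genes. Windows per gene differ in number, and a match is a description of the letters, not a site in use. The 5 matches are shown 5′ to 3′ on the strand of the gene with the motif in capitals, to set the gene that fell beside those that rose.
CHAC1: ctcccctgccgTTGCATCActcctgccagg
CEBPG: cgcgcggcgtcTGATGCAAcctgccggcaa
ATF3: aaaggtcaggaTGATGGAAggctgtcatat
ASNS: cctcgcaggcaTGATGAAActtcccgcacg
PPP1R15A: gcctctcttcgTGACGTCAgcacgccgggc

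The CHAC1 stretch lies at chr15:40953251-40953280 on the plus strand and holds the composite element in reverse orientation, from -209 to -202 relative to the start, counted with the first transcribed base as 1. The CEBPG stretch (chr19:33374060-33374089, plus strand) holds it from -42 to -35 of the downstream of its annotated starts. The ATF3 stretch (chr1:212565205-212565234, plus strand) holds it from -191 to -184 of the upstream start. The ASNS stretch (chr7:97872458-97872487, minus strand) holds it from -68 to -61. The CRE of PPP1R15A (chr19:48872352-48872381, plus strand) runs from -58 to -51. In GENCODE 29 the motifs of CHAC1 and ASNS lie inside an annotated exon, and the other 3 do not. ASNS, which fell by 0.11, and CHAC1, which rose by 0.95, both hold the composite element in their window. Motif and direction of change were not tested against each other. For ATF4, ATF5, DDIT3, CEBPB and TRIB3 these letters are not in the windows searched.

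In lists of genes around the effectors, counts of calls are read against all tested genes, of which 17.3% were called higher and 19.0% lower. Of 15 genes for eIF2 kinases, phosphatase partners and sensors, which act upstream of ATF4, 4 rose (26.7%) and 2 fell (13.3%), shares near those of all tested genes (median -0.019). EIF2AK4, which encodes GCN2, the kinase that senses uncharged tRNA, fell by 0.50 ± 0.051 on the log2 scale (SE), to 105.7 ± 3.10 CPM in CAMKV-KD against 149.4 ± 7.90 CPM in Control (SD, n = 3 each; adjusted p = 0.00154, edgeR). EIF2AK2, the double-stranded RNA sensor PKR, was at 0.16, a call that was lost without CAMKV-KD 1, CAMKV-KD 2, CAMKV-KD 3, Control 1 or Control 3 (0.13 to 0.17, adjusted p up to 0.0763, edgeR). EIF2AK3, the endoplasmic reticulum sensor PERK, was at -0.019 and was not called (adjusted p = 0.855, edgeR). EIF2AK1, the heme-regulated kinase HRI, was at -0.15 and not called, with 3736, 2792 and 3638 counts in CAMKV-KD and 5459, 1600 and 4395 in Control. It was called at -0.50 without Control 2, stood at 0.14 without Control 1 and at -0.001 without Control 3. PPP1R15B, the constitutive counterpart of PPP1R15A, fell by 0.24 ± 0.043 (SE; adjusted p = 0.01, edgeR), to 172.5 ± 8.30 CPM in CAMKV-KD against 203 ± 1.96 CPM in Control (SD, n = 3 each). PPP1CA, a catalytic subunit that both can bind, rose by 0.31. QRICH1, a transcriptional regulator downstream of PERK signalling, rose by 0.46, and DNAJC3, an inhibitor of eIF2 kinases, by 0.36.

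Among 11 genes of eIF2, its exchange factor eIF2B and associated factors, 4 rose (36.4%) and 1 fell (9.09%), against 17.3% and 19.0% of all tested genes. The median was 0.090, and without CAMKV-KD 1 the counts were 2 and 2. EIF5, which promotes GTP hydrolysis on eIF2, rose by 0.42, EIF2B4, a subunit of eIF2B, rose by 0.31, and EIF2A, an alternative initiation factor, fell by 0.34.

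Paralogues and bZIP partners had 7 of 21 tested members higher (33.3%) and 1 lower (4.76%), against 17.3% and 19.0% of all tested genes (median 0.27). JUN, a partner of ATF3 in AP-1 dimers, rose by 0.54 ± 0.042 (SE; adjusted p = 0.00065, edgeR), and ATF1, a CREB relative, by 0.58. The C/EBP genes CEBPA and CEBPD were at 0.39 and 0.21 and were not called (adjusted p = 0.0809 and 0.408, edgeR). CHAC2, the constitutive relative of CHAC1, was at 0.58 (adjusted p = 0.0418, edgeR), a call lost without CAMKV-KD 1, CAMKV-KD 3, Control 1, Control 2 or Control 3 (0.46 to 0.60, adjusted p up to 0.117, edgeR). TRIB1, the relative of TRIB3 that was called lower, was at -0.21, and that call was lost in each of the 6 fits without a library (-0.23 to -0.17, adjusted p up to 0.107). No member was called lower in 5 of those fits, all but the one without CAMKV-KD 2. TRIB2 was at 0.11 and not called, and was called at 0.17 without CAMKV-KD 2.

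Amino acid transporters that ATF4 is known to induce had 7 of 11 tested members higher (63.6%, against 17.3% of all tested genes). This list too was chosen with earlier results of these data known. In edgeR 0 fell, against 19.0% of all tested genes, and 0 were lower at an unadjusted p below 0.05 (median 0.48). The count of rises was 7 or 8 in every alternative run. None was called lower in any of them, DESeq2 and limma-voom included. SLC3A2, the heavy chain shared by several exchangers, rose by 0.93 ± 0.070 (SE; adjusted p = 0.000612, edgeR), to 129.9 ± 0.626 CPM in CAMKV-KD against 68.3 ± 6.01 CPM in Control (SD, n = 3 each). SLC6A9, a glycine transporter, rose by 1.05, SLC7A6, a light chain that pairs with SLC3A2, by 0.86, and SLC1A4, a carrier of alanine, serine and cysteine, by 0.68. SLC7A11, the cystine carrier, was named after its values were seen. It was at 35.6, 45.3 and 30.04 CPM in CAMKV-KD and at 2.56, 0.229 and 19.5 CPM in Control, so the groups did not overlap, but the Control libraries differed widely and it was not called (2.32; adjusted p = 0.229, edgeR). Without Control 3 it was called at 4.71 (adjusted p = 0.0325, edgeR).

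Genes of amino acid synthesis and one-carbon metabolism, many of them known ATF4 targets, had 2 of 15 members higher (13.3%) and 5 lower (33.3%), against 17.3% and 19.0% of all tested genes (median 0.055), while with library totals 5 were called higher. Without any one library 1 member was called higher, and 3 were called lower without CAMKV-KD 1, CAMKV-KD 3 or Control 3. SHMT2, the mitochondrial serine hydroxymethyltransferase, fell by 0.55 ± 0.040 (SE; adjusted p = 0.000561, edgeR), to 322 ± 3.42 CPM in CAMKV-KD against 472 ± 21.9 CPM in Control (SD, n = 3 each). GOT1, the cytosolic aspartate aminotransferase, fell by 0.43, while PSAT1, of serine synthesis, rose by 0.20. Among 13 genes for aminoacyl-tRNA synthetases and the tRNA exporter XPOT, 6 rose (46.2%) and 1 fell (7.69%; median 0.20), with 3 higher without CAMKV-KD 1 or Control 3. MARS rose by 0.37 and NARS, for asparagine, by 0.37, while LARS, for leucine, fell by 0.31.

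A further list held stress regulators and secreted factors grouped as ATF4 targets, and whether ATF4 controls each of them in these cells was not tested. It had 6 of 24 tested members higher (25%) and 4 lower (16.7%), close to the 17.3% and 19.0% of all tested genes (median 0.0070). GDF15, a secreted stress cytokine, rose by 1.59 ± 0.15 (SE; adjusted p = 0.00121, edgeR), to 5.71 ± 0.613 CPM in CAMKV-KD against 1.89 ± 0.212 CPM in Control (SD, n = 3 each). SESN2, an inhibitor of mTORC1, rose by 0.83, ADM2, a secreted peptide, by 0.50 and PMAIP1 (NOXA), a pro-apoptotic BH3 protein, by 0.31. DDIT4 (REDD1), another inhibitor of mTORC1, fell by 0.64 ± 0.039 (SE; adjusted p = 0.000337, edgeR), to 92.2 ± 0.364 CPM in CAMKV-KD against 143.7 ± 5.22 CPM in Control (SD, n = 3 each). STC2, a secreted glycoprotein, fell by 0.49, and RHBDD1, a rhomboid protease, by 1.08.

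**Figure D4:**
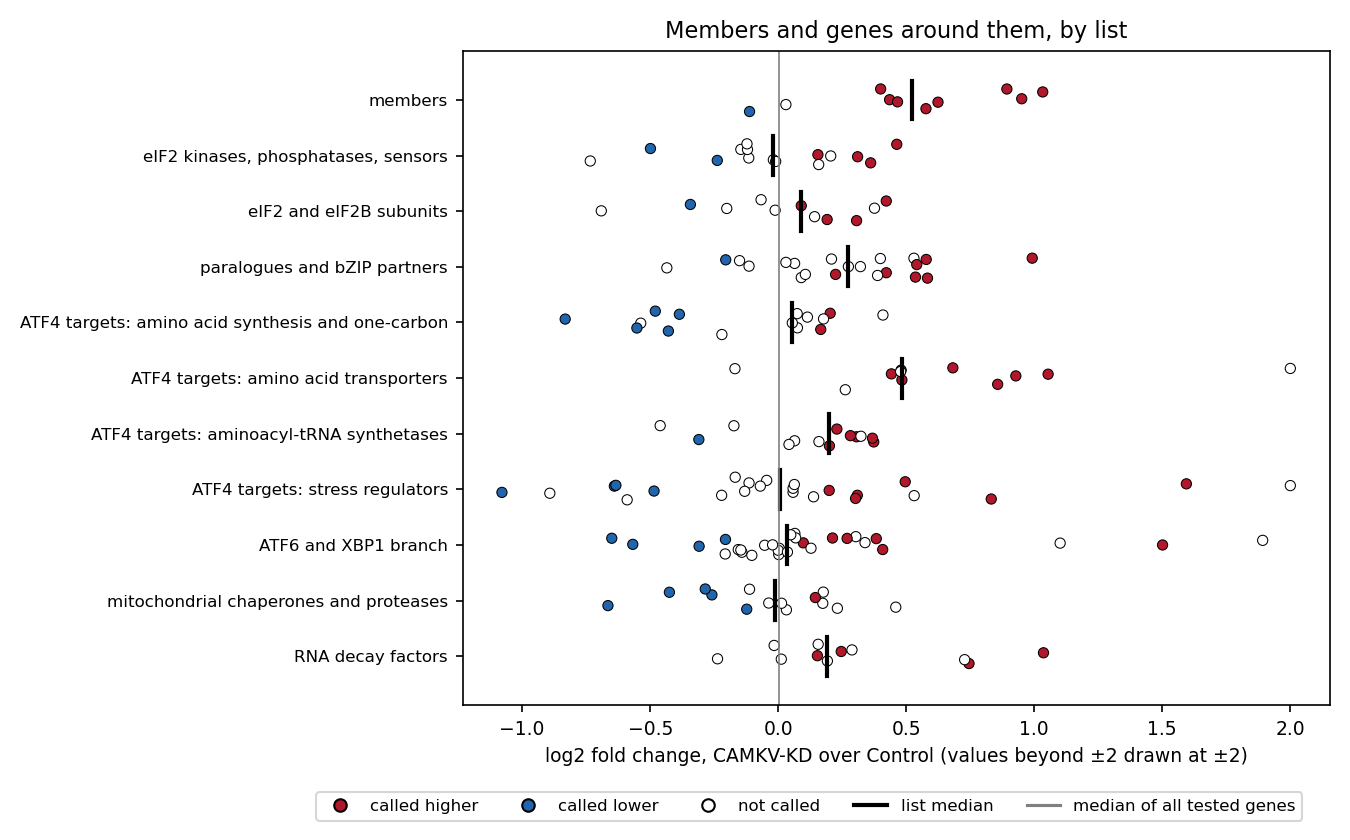
Log2 fold change, CAMKV-KD over Control (horizontal axis), of the 10 effectors and of the tested members of 10 lists around them; each point is a gene, filled red or blue where called, and black bars are list medians. The medians of the effectors (0.52) and the amino acid transporters (0.48) lie farthest above the median of all tested genes (0.004, grey line).

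Of 29 genes of the ATF6 and XBP1 branches of the unfolded protein response 6 rose (20.7%) and 4 fell (13.8%), close to the 17.3% and 19.0% of all tested genes (median 0.036). The higher count was 3 without CAMKV-KD 1, CAMKV-KD 2 or Control 1, and 2 without CAMKV-KD 3 or Control 3. DNAJB11, a co-chaperone of the endoplasmic reticulum, rose by 0.41. ERN1, the sensor IRE1, fell by 0.65 ± 0.077 (SE; adjusted p = 0.00242, edgeR), to 21.6 ± 0.663 CPM in CAMKV-KD against 33.9 ± 2.58 CPM in Control (SD, n = 3 each). The protein disulfide isomerase genes PDIA6 and PDIA3 fell by 0.31 and 0.21, and CREB3L2, a membrane-bound bZIP factor, by 0.57. HSPA5 (BiP), the main chaperone of the compartment, named after its values were seen, was at 0.098, a call lost without CAMKV-KD 1, CAMKV-KD 2, CAMKV-KD 3, Control 1 or Control 3 (0.086 to 0.11, adjusted p up to 0.0754).

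Mitochondrial chaperones and proteases had 1 of 14 members higher (7.14%) and 5 lower (35.7%), against 17.3% and 19.0% of all tested genes (median -0.012). No member was called higher without CAMKV-KD 1, CAMKV-KD 2, CAMKV-KD 3, Control 2 or Control 3. TRAP1, a mitochondrial HSP90, fell by 0.67 ± 0.070 (SE; adjusted p = 0.00165, edgeR), HTRA2, a protease of the intermembrane space, by 0.43, and GRPEL1, a nucleotide exchange factor, by 0.29. Several stress mRNAs of this set are known substrates of nonsense-mediated decay. Of 11 genes for decay factors 4 rose (36.4%, against 17.3% of all tested genes) and 0 fell (against 19.0%) in edgeR. At an unadjusted p below 0.05, 0 were lower as well (median 0.19). The list was not limited to nonsense-mediated decay and also held ZFP36, ZFP36L1 and ZFP36L2. In it 2 genes rose without CAMKV-KD 1, CAMKV-KD 3 or Control 3. No decay factor was called lower in any alternative run. The decay genes SMG5 and UPF1 rose by 0.75 and 0.25, and ZFP36L1, the largest called rise of the list, by 1.04 (adjusted p = 0.0257, edgeR). SMG5 and UPF1 kept their calls in all 6 fits without a library, so the call of ZFP36L1 was lost where 2 genes rose.

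The genes whose profile over the 6 libraries was most like that of 3 of the effectors were listed by root-mean-square distance of centred log2(CPM + 1) values, over 9539 genes with a mean of at least 10 CPM. For ATF4 these were MYL6, NFIA, VPS52, TOMM40 and GET4, at distances from 0.0185 to 0.0242. For DDIT3 they were SYNM, PLK2, RHOF, NEDD4 and SETD1B, from 0.0326 to 0.0561. For ASNS they were KRR1, MRPL45, EML4, CKLF and RBPJ, from 0.0117 to 0.0164. No other effector was among them, but CHAC1, at 10.18 CPM in CAMKV-KD and 5.26 CPM in Control, was below the minimum and could not be. The distance also grows with any difference in size of change, so whether the effectors vary together was not tested.

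Total counts were 20238281 to 24274441 in CAMKV-KD and 22364742 to 24701564 in Control. Mitochondrially encoded mRNAs took 2.70 to 2.92% of counts in CAMKV-KD and 1.67 to 1.90% in Control, and ribosomal protein mRNAs 5.90 to 5.95% in CAMKV-KD and 8.42 to 8.70% in Control. All 12 noradrenergic neuroblastoma markers had a mean above 1 CPM over the 6 libraries. TFAP2B was at 0.364, 0.726 and 0.312 CPM in CAMKV-KD and at 14.8, 0.597 and 0.359 CPM in Control. Control 1 alone lifted its mean above 1 CPM. Summed levels of the 12 markers were 2225 to 2478 CPM in CAMKV-KD and 2592 to 3437 CPM in Control. Of the 12, 4 were called lower (33.3%, against 19.0% of all tested genes) and 0 higher (against 17.3%). Of 9 fibroblast and stromal markers 7 had a mean above 1 CPM over the 6 libraries and POSTN was at 0. Their summed levels were 929 to 993 CPM in CAMKV-KD and 709.7 to 891 CPM in Control. Of 8 tested, 4 were called higher (50%, against 17.3% of all tested genes) and 1 lower (12.5%, against 19.0%). No blood or endothelial marker of 10 reached 1 CPM (summed 1.09 to 1.65 CPM in CAMKV-KD and 1.21 to 1.65 CPM in Control), and CD3E, MS4A1 and HBB were at 0. The part of these differences in the values of the effectors was not tested.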

How the data were processed

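The deposited table holds raw counts per gene that were not normalized. FastQC 0.11.2, HISAT2 2.1.0, StringTie 1.3.5 and GRCh38.p13 are named in the submitters' processing notes. Neither the strand setting nor the way counts were taken is given in the sources used here. Of entries with the same symbol, the most highly counted kept the plain symbol. Counts were filtered (filterByExpr), scaled by TMM and tested with edgeR 4.0.16 (R 4.3.3, glmQLFit, glmQLFTest, group as the only term), with Benjamini-Hochberg adjustment over 13366 entries. The steps were tested on simulated data. There 24.2% of 99 genes with a true log2 change of 0.5 were called, and 48.4% of 95 genes with a change of 1. Among unchanged genes 3 were called. Far fewer genes changed there than were called in the data, so these shares cannot be carried over to it. SE was derived from the fitted log2 fold change and its F statistic. CPM are TMM-scaled. Alternatives used DESeq2 1.42.0, limma 3.58.1, other scalings, no filter, a replicate block, summed entries and each library left out. The genes and lists were chosen with earlier results of these data known. Named list genes were among the 4 largest called rises or falls, or relatives, kinases, phosphatase subunits or neighbours of the effectors. Positions are from GENCODE 29 on GRCh38. No 2 libraries held identical values. A further marker list is not reported here.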

Additional observations from a re-analysis of the deposited data

How the results depend on the processing

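The count of effectors called higher was 8 in every alternative except the fit with the replicate number as a block, where it was 7 because ATF3 missed the threshold (adjusted p = 0.0515, edgeR). The count called lower, 1 (ASNS), was 0 with library totals, with the replicate block and with offsets for transcript length and GC content, an alternative chosen after seeing the data, and ran from 0 to 1 when a library was left out. The median log2 fold change of the 10 genes was 0.58 with library totals, 0.50 with upper-quartile scaling and 0.56 with the length and GC offsets, and 0.51 to 0.53 when a library was left out. Over all tested genes, 1739 to 1925 were called higher and 2044 to 2119 lower when a library was left out. The replicate block gave 1526 higher and 1811 lower; same-numbered libraries correlated at -0.062 to -0.010 in their deviations from the group means, and 0 of 6 libraries correlated best with its own number, so the block was not used. Under the block the calls of ADM2 (adjusted p = 0.0575, edgeR), GRPEL1 (adjusted p = 0.0512, edgeR), EIF2AK2, CHAC2, TRIB1 and HSPA5 were also lost. Counts of calls under the block were 2 higher for eIF2 and eIF2B, 4 higher and 0 lower for paralogues and partners, 1 higher and 3 lower for amino acid synthesis, 3 higher for the ATF6 and XBP1 branches, 0 higher and 3 lower for mitochondrial chaperones and proteases, and 2 higher for RNA decay. TRIB1 was also not called with library totals or with no filter on low counts, CHAC2 with no such filter and HSPA5 with upper-quartile scaling. When a library was left out, CEBPB ran from -0.023 to 0.078, negative without CAMKV-KD 3 or Control 2. EIF2AK1 ran from -0.50 to 0.14, positive without Control 1. EIF2AK3 ran from -0.055 to 0.022, positive without CAMKV-KD 2 (0.020) or Control 1, and was also positive with library totals (0.040) and with the length and GC offsets (0.005). The cause was not tested. In the amino acid synthesis list 5 members were called higher with library totals, 4 with DESeq2 and 4 with the offsets, against 2. Depth limits CHAC1 most, at 109 to 251 counts per library.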
